A study of Mus musculus with 8 samples.

Results

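The genes described here encode the protein folding and quality control machinery of the endoplasmic reticulum (ER), the compartment in which secreted and membrane proteins are made. A list of 31 gene symbols, chosen with earlier results of these data known, was matched to the 55335 genes of the count table by GENCODE M21 symbol. Where several gene IDs shared a symbol, the one with most counts was used. All 31 were found, and all 31 passed the filter on low counts, the smallest count being 174, for Derl3. By role they comprise 10 chaperones and their cofactors, 5 disulfide enzymes, 8 genes of ER-associated degradation (ERAD), 4 genes of the translocon and its partners, and 4 stress sensors and regulators.

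Liver RNA came from 8 female mice, all fed ethanol in the NIAAA chronic-plus-binge model, in which feeding of an ethanol diet ends with a single large dose. In 4 of them, mice 28, 34, 37 and 39, Ripk1 was knocked out in hepatocytes (Ripk1-hepKO), and 4 were controls (Ripk1-Con), mice 29, 32, 40 and 41. Each mouse was an independent animal, and sex, tissue and feeding did not differ between the groups. Not given in the sources used here were the Cre driver, the control alleles, the age of the mice and the ethanol dose. No mice without ethanol were analysed here, and the comparison is between genotypes under ethanol. Per its title, the study asked whether hepatocyte RIPK1, a kinase and scaffold of death receptor complexes, restrains ER stress, cell death and inflammation.

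A new protein enters the ER through the SEC61 channel and is held by chaperones such as BiP while disulfide isomerases join its cysteines. A protein that fails to fold is handed back to the cytosol and degraded by the proteasome, which is the work of ERAD. When unfolded proteins build up, the sensors ATF6, IRE1 and PERK signal to the nucleus, and ATF6 and IRE1 raise the folding capacity largely through genes of this kind. Hepatocytes, which secrete most plasma proteins, depend heavily on this system.

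Much of that response runs through short DNA elements in the promoters. The ER stress response element (ERSE) is CCAAT, then 9 bases of any kind, then CCACG, where NF-Y binds the left end and ATF6 the right. ERSE-II is ATTGG, then 1 base of any kind, then CCACG. The element bound by XBP1 (UPRE) reads TGACGTGG. Each was searched as an exact match on both strands in RefSeq promoter windows of the build GRCm38.p6, which run from 250 bases before to 50 bases after each RefSeq start. ERSE and ERSE-II share the letters CCACG but did not overlap in any window of the listed genes. Of the 31 genes, 25 had a window, all but Atf6, Manf, Sec61a1, Derl1, Hyou1 and Ostc. RefSeq starts can differ from the GENCODE starts used for gene positions. The window of Dnajb9, chr12:44210019-44210318, lay wholly inside its GENCODE gene. The bases before that start were therefore not searched, and an absent element in Dnajb9 does not describe them. An ERSE was found in 9 of these 25 (36%), against 39 of all 32851 windows (0.119%). An ERSE-II was found in a further 2, Herpud1 and Dnajb11 (8% of the 25), against 12 of all windows (0.0365%). The UPRE was found in 0 of the 25 genes and in 222 of all windows (0.676%). These are shares of genes set against shares of windows, of which a gene can have several. All windows include those of the list, and the 39 windows with an ERSE belong to 37 genes. The genes were listed for their role in the ER, so the contrast is descriptive. A match in a window is a description of the letters there and does not show that a factor binds.

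The 250 bases before the RefSeq start are shown for Hspa5 and Hsp90b1, the chaperone genes of highest level per kilobase, to set the elements in their context. The GENCODE start of Hspa5, at 34771970, lies within its printed stretch, and the marked ERSE lies after that start. Capitals mark an ERSE. In Hsp90b1 the right-hand element lies on the other strand and is printed as its reverse complement.
Hspa5, chr2:34771840-34772089, plus strand: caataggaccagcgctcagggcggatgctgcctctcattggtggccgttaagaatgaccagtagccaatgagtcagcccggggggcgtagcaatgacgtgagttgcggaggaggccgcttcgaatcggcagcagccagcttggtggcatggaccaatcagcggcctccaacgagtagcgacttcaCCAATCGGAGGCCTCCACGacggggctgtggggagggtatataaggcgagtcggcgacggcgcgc
Hsp90b1, chr10:86705445-86705694, minus strand: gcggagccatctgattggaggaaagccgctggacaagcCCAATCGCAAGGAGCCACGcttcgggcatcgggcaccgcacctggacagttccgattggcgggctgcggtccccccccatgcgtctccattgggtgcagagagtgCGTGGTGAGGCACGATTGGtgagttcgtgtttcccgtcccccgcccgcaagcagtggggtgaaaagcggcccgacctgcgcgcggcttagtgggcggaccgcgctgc

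The other matches are shown with up to 10 bases on each side, to let the spacer between the ends of the element be compared among genes. All read 5′ to 3′ on the strand of the gene. In Calr, Derl3 and Creld2 the element lies on the other strand, so the capitals begin with CGTGG and end with ATTGG.
Calr, chr8:84847065-84847103, minus strand: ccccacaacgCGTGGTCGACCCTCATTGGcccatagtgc
Canx, chr11:50325790-50325828, minus strand: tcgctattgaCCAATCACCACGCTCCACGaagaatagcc
Dnajc3, chr14:118937817-118937855, plus strand: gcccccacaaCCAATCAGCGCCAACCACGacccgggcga
Pdia6, chr12:17266481-17266519, plus strand: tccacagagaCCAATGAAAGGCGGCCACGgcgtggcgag
Creld2, chr15:88819510-88819548, plus strand: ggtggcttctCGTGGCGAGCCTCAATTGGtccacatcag
Derl3, chr10:75893232-75893270, plus strand: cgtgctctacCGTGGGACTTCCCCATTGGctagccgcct
Syvn1, chr19:6046522-6046560, plus strand: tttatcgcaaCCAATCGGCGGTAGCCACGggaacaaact
Herpud1 (ERSE-II), chr8:94386367-94386397, plus strand: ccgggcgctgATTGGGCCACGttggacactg
Dnajb11 (ERSE-II), chr16:22857847-22857867, plus strand: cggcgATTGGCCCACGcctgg

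**Figure D1:**
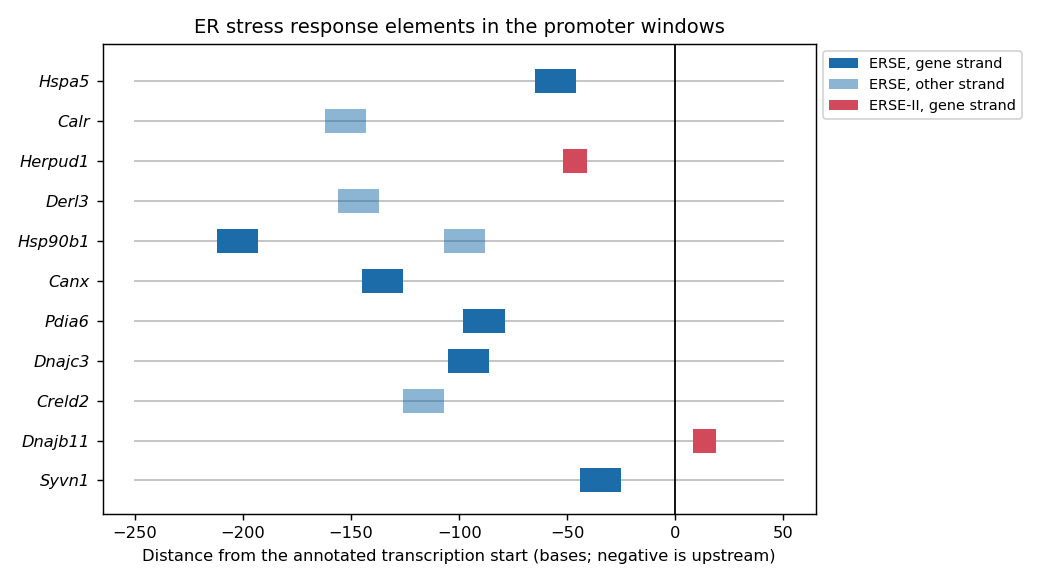
Positions of ERSE (blue; pale where it lies on the other strand) and ERSE-II (red) in the promoter windows of the 11 genes with a match, as distance in bases from the RefSeq transcription start. All matches lie before the RefSeq start except that of Dnajb11, which begins at base 8 after it.

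Sequencing depth was 28038390 to 67328158 counts per library. The targeted gene, Ripk1, did not separate the groups, at 38.1, 35.8, 33.1 and 23.1 CPM (counts scaled to the size of the library and by TMM) in knockouts 28, 34, 37 and 39 and 34.3, 53.6, 27.8 and 34.2 CPM in controls 29, 32, 40 and 41. Gene-level counts do not resolve deleted exons, and cells other than hepatocytes retain Ripk1, and the log2 fold change was -0.21 ± 0.22 (SE; edgeR adjusted p = 0.866), so these values neither identified nor contradicted a label. Mouse 28 stood apart, with a mean Spearman correlation of 0.954 with the other libraries against 0.974 to 0.980 for the remaining 7. Hepatocyte genes were abundant, and the summed level of 8 of them was 84968 to 102310 CPM in Ripk1-hepKO and 104463 to 126663 CPM in Ripk1-Con, ranges that did not overlap. Taken singly, 6 of these 8 had a log2 fold change below 0 and 2 above it. In 2 of the 8 the groups did not overlap, both lower in Ripk1-hepKO, beside 2.09% of all genes. In bulk liver, fewer cells of a type and less RNA per cell cannot be told apart. Of 8 pancreatic acinar markers, which would bring a rich ER, 4 were at 0 in every library and 7 stayed under 1 CPM in every library. Marker sums of Kupffer cells, monocytes, neutrophils, endothelial cells, cholangiocytes and T and NK cells overlapped between the groups. Kupffer cell markers summed to 179.6 to 278 CPM in Ripk1-hepKO and 69.8 to 317 CPM in Ripk1-Con, with mouse 40 the lowest.

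None of the 31 genes passed the threshold between the genotypes (FDR 0.05, edgeR quasi-likelihood test, lowest adjusted p = 0.742), nor did any of the 15234 genes tested (0% called, with 1017 at an unadjusted p under 0.05). DESeq2 and limma voom with sample quality weights also called 0 of the 31, while DESeq2 called 36 genes in all (0.237%). At an unadjusted p under 0.05 stood 1 gene higher in Ripk1-hepKO, Edem2, and 1 lower, Crebrf, which is 2 of 31 beside 6.68% of all genes tested (3.86% higher and 2.82% lower), a share near that background. In 0 of 31 genes did the groups fail to overlap, against 4.10% of all genes (2.01% higher and 2.09% lower). The log2 fold change lay above 0 for 20 of 31, against 51.8% of all genes, and its median was 0.04, against 0.01. Among the 5807 genes at least as abundant as the rarest of the list, 45.2% lay above 0 and the median was -0.02. Without mice 28 and 40 together, 10 of 31 lay above 0 and the median was -0.06. That pair holds the knockout most often highest among the 31 genes and the control most often lowest, so leaving it out tends to lower the fold changes.

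The intervals limit how large a genotype difference could be. The 95% confidence interval of the fold change lay within 2-fold in either direction for 27 of the 31 genes and within 1.5-fold for 19. The exceptions to the 2-fold bound were Dnajb9, Derl3, Xbp1 and Crebrf. The log2 fold change was smaller than 0.25 in size for 28 of 31 genes (90.3%), against 78.3% of these 5807 genes. Across all 8 mice, with the genotype difference included, the highest mouse exceeded the lowest by a median of 1.80-fold over the 31 genes.

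**Figure D2:**
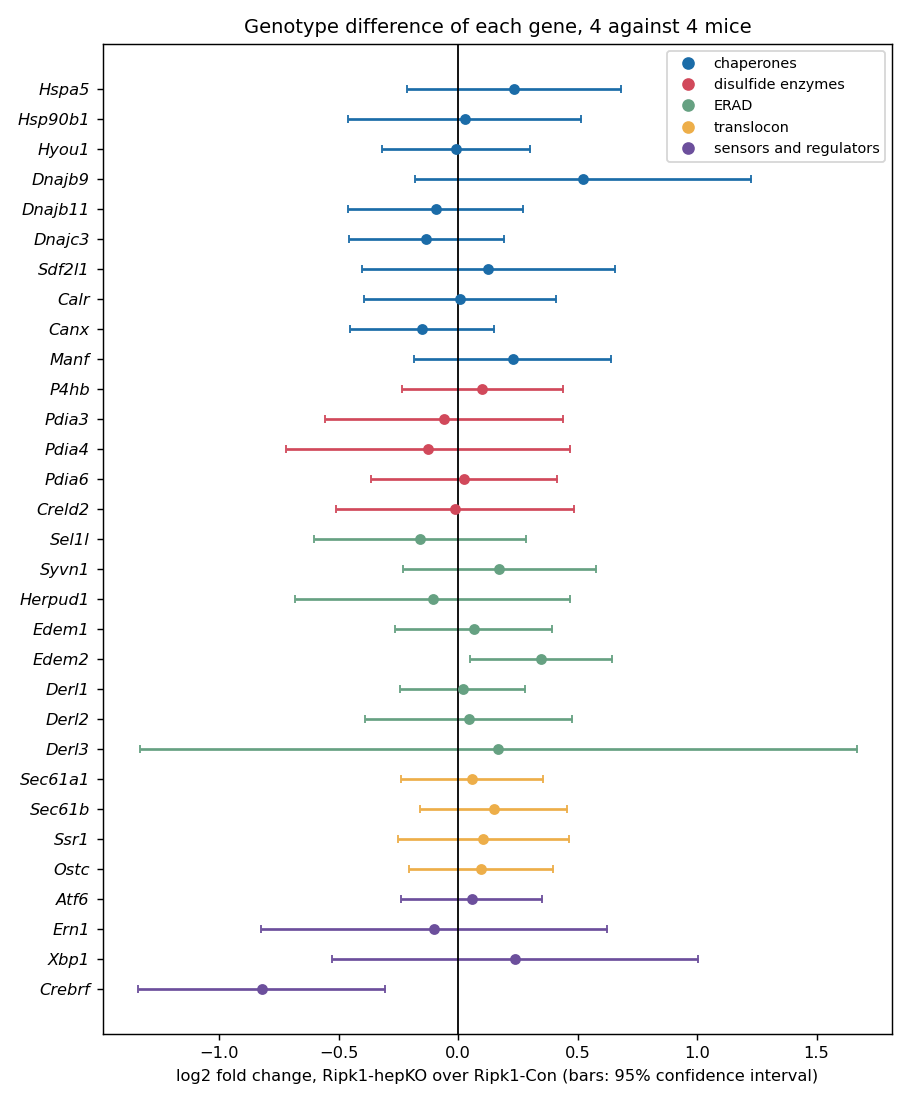
Log2 fold change of Ripk1-hepKO over Ripk1-Con for each of the 31 genes (points), with its 95% confidence interval (bars) and the role by colour. All intervals reach across 0 except those of Edem2 and Crebrf, and the interval of Derl3 is the widest.

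Scaled by the length of the annotated exons, P4hb stood highest of the 31 genes, at a mean of 713 CPM per kilobase over the 8 mice. It was followed by Hsp90b1 at 484, Hspa5 at 430 and Calr at 359 CPM per kilobase. Pdia4, Herpud1 and Pdia3 came next, at 179, 177 and 161 CPM per kilobase. The sensors were far lower, with Atf6 at 13.2 and Ern1 at 10.4 CPM per kilobase, and Crebrf was the lowest at 2.96. Xbp1 was the most abundant of the regulators, at 84.8 CPM per kilobase.

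Among the chaperones, Hspa5 encodes BiP, the HSP70 of the ER and the partner that keeps the sensors inactive (ENSMUSG00000026864, chromosome 2, 34771970 to 34777547, plus strand on GRCm38). It stood at 2556, 1984, 1923 and 1390 CPM in knockouts 28, 34, 37 and 39, and at 2110, 1562, 1481 and 1529 CPM in controls 29, 32, 40 and 41. Mouse 28 was the highest and mouse 39, of the same genotype, the lowest, so the control values lay inside the range of the other group. The means were 1963 ± 477 and 1670.3 ± 295 CPM (SD, n = 4 each), and the log2 fold change was 0.23 ± 0.20 (SE) with an adjusted p = 0.83 from edgeR. With each mouse left out in turn it was 0.08 (without mouse 28) to 0.37.

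Hsp90b1, the HSP90 of the ER (GRP94), stood at 1955, 2301, 2132 and 1499 CPM in mice 28, 34, 37 and 39 and at 2741, 1639, 1466 and 1890 CPM in mice 29, 32, 40 and 41. Both the highest and the lowest value were in control mice. The log2 fold change was 0.03 ± 0.22 (SE; edgeR adjusted p = 0.988), and its sign turned without mouse 32, 34, 37 or 40. Sdf2l1, a small cofactor of BiP, stood at 28.1, 39.5, 42.8 and 25.6 CPM in Ripk1-hepKO and 45.1, 29.1, 25.6 and 24.7 CPM in Ripk1-Con (log2 difference 0.13, SE 0.23, adjusted p = 0.926 in edgeR). With each mouse left out in turn the value for Sdf2l1 ran from 0.0010 to 0.36.

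Dnajb9, an HSP40 cochaperone of BiP that is induced through IRE1 and XBP1, had the largest fold change of the chaperones (ENSMUSG00000014905, chromosome 12, 44205559 to 44210326, minus strand). It stood at 326, 163, 162 and 155 CPM in mice 28, 34, 37 and 39 and at 108, 194, 166 and 92.4 CPM in mice 29, 32, 40 and 41. Mouse 28 alone lay above all controls, while the other 3 Ripk1-hepKO mice lay between the lowest and the highest control. The means were 202 ± 83.3 and 140 ± 47.8 CPM (SD, n = 4), and the log2 fold change was 0.52 ± 0.31 (SE) with an adjusted p = 0.774 from edgeR. Without mouse 28 it was 0.19.

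The remaining 6 chaperone genes had log2 fold changes from -0.15 (Canx) to 0.23 (Manf). Calr and Canx are the lectin chaperones that hold sugar-bearing proteins, Hyou1 exchanges the nucleotide of BiP, and Dnajb11 and Dnajc3 are further HSP40 cochaperones. Manf, a secreted protein that binds BiP, overlaps annotated genes on both strands, so its counts are uncertain. Together 6 of the 10 chaperones lay above 0, the median of the log2 fold changes being 0.02. It ran from -0.06 (without control mouse 40) to 0.19 (without control mouse 29) with each mouse left out in turn.

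Of the 5 disulfide enzymes, 4 were the lowest in control mouse 40 and 3 the highest in control mouse 29. P4hb, the classic protein disulfide isomerase, stood at 2385, 2138, 2223 and 1692 CPM in mice 28, 34, 37 and 39 and at 2267, 1984, 1644 and 1975 CPM in mice 29, 32, 40 and 41. The groups overlapped across most of their range, and the log2 fold change was 0.10 ± 0.15 (SE) with an adjusted p = 0.907 from edgeR. Pdia4, an isomerase with an extra catalytic domain and chosen for display after its values were seen, stood at 340, 478, 507 and 319 CPM in Ripk1-hepKO and at 696, 359, 314 and 428 CPM in Ripk1-Con. Control mouse 29 was the highest of all 8 and control mouse 40 the lowest, 2.21-fold apart. Pdia3, which works with the lectin chaperones, Pdia6, an isomerase that binds BiP, and Creld2, a secreted protein induced by ER stress, had log2 fold changes of -0.06, 0.03 and -0.01. The median of the 5 was -0.01, with 2 above 0, and it ran from -0.10 (without mouse 40) to 0.16 (without mouse 29) with each mouse left out in turn.

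Chaperones and disulfide enzymes were high and low in the same few mice, drawn from both genotypes. Among these 15 genes the lowest mouse was always Ripk1-hepKO mouse 39 (6 genes), Ripk1-Con mouse 40 (6 genes) or Ripk1-Con mouse 41 (3 genes). The highest was control mouse 29 for 8 genes and mouse 28 for 4, namely Hspa5, Dnajb9, Manf and P4hb. As a median deviation from the control mean in log2 CPM, the 15 genes stood at 0.31 in mouse 29, 0.21 in mouse 37 and 0.17 in mouse 34, and at -0.27 in mouse 39 and -0.26 in mouse 40. Mice 32 and 41 lay near the control mean, at 0.05 and -0.04, and mouse 28 at -0.10, its high Hspa5 and Dnajb9 being set off by low Dnajc3, Dnajb11, Canx, Pdia3 and Pdia4. Over all 31 genes mouse 28 was the highest for 13 (41.9%), where it was the highest for 26.3% of all genes tested. Mouse 29 was the highest for 9 (29.03%), against 11.7% of all genes. Mouse 40 was the lowest for 12 (38.7%), against 14.7% of all genes.

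**Figure D3:**
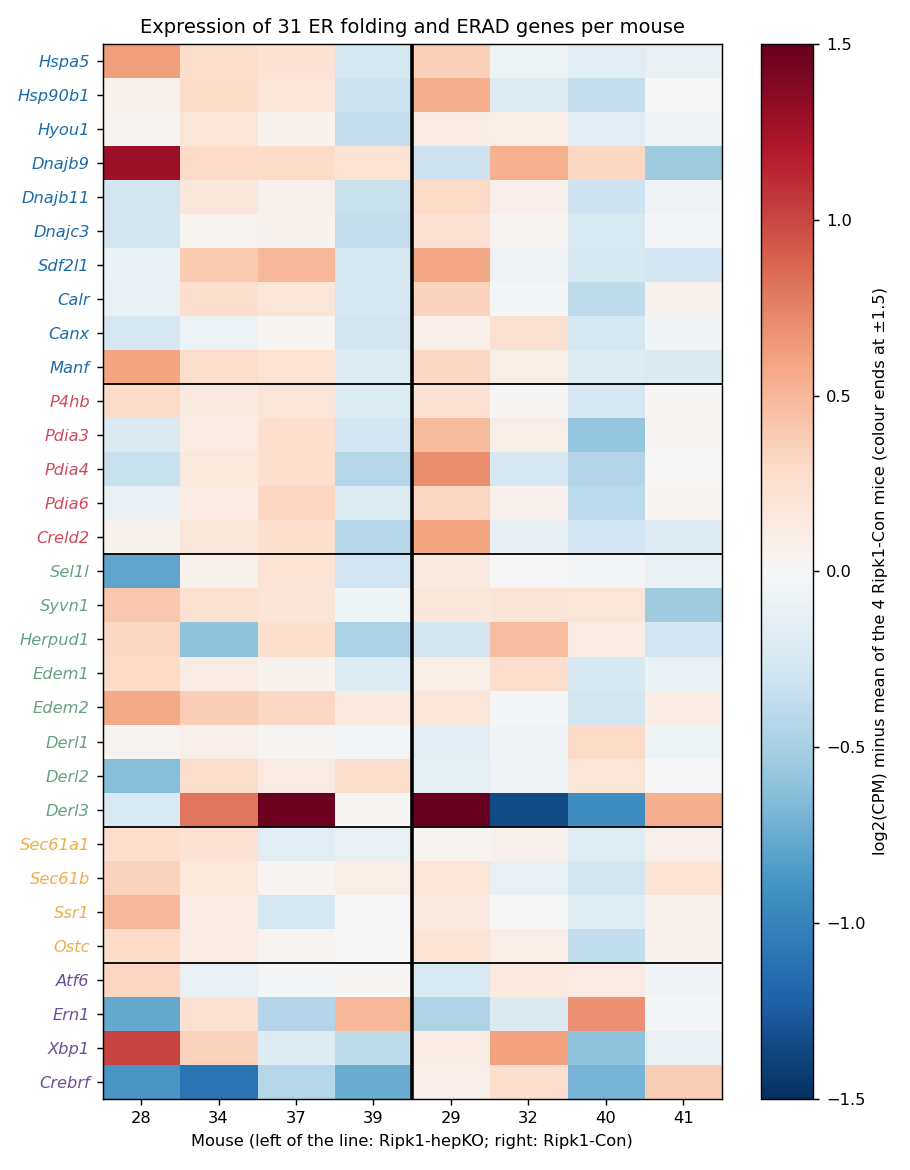
Log2 CPM of the 31 genes (rows, names coloured by role) in each mouse (columns), as the difference from the mean of the 4 Ripk1-Con mice; colour ends at 1.5 in either direction, which Derl3 in mouse 29 exceeds. Mice 29, 34 and 37 are above the control mean for most chaperones and disulfide enzymes and mice 39 and 40 below it, while mouse 28 is mixed.

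The 8 ERAD genes were the highest in 6 different mice. Edem2, which trims mannose from misfolded glycoproteins and so marks them for degradation (ENSMUSG00000038312, chromosome 2, 155701677 to 155729475, minus strand), stood at 65.6, 57.2, 54.7 and 48.6 CPM in mice 28, 34, 37 and 39 and at 50, 43.5, 36.5 and 47.8 CPM in mice 29, 32, 40 and 41. The groups overlapped only where control mouse 29 exceeded mouse 39. The means were 56.5 ± 7.01 and 44.4 ± 5.95 CPM (SD, n = 4), and the log2 fold change was 0.35 ± 0.13 (SE) with an unadjusted p = 0.0265 and an adjusted p = 0.742 from edgeR. With each mouse left out in turn it was 0.27 to 0.42, and without mice 28 and 40 together 0.18. Its sister Edem1 had a log2 fold change of 0.07.

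The core of the retrotranslocation complex is the ubiquitin ligase Syvn1 (HRD1) with its partner Sel1l. Sel1l stood at 146, 264, 290 and 206 CPM in knockouts 28, 34, 37 and 39 and at 277, 251, 247 and 236 CPM in controls 29, 32, 40 and 41. The controls lay close together and mouse 28 was the lowest, so the log2 fold change of -0.16 ± 0.20 (SE; adjusted p = 0.889, edgeR) was 0.0045 without that mouse. Syvn1 had a log2 fold change of 0.17, the other sign, and its lowest value, 125 CPM, was in control mouse 41, without which it was 0.02. Syvn1 was the highest in mouse 28, at 240 CPM, where Sel1l was the lowest.

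Herpud1, a membrane protein that assembles the ligase complex, stood at 519, 276, 496 and 300.1 CPM in Ripk1-hepKO and at 344, 576, 450 and 342 CPM in Ripk1-Con; control mouse 32 was the highest and Ripk1-hepKO mouse 34 the lowest. Its log2 fold change was -0.11 ± 0.26 (SE; edgeR adjusted p = 0.946), and the sign turned without mouse 32, 34 or 39. Of the Derlins, which thin the membrane for the exit of the protein, Derl1 and Derl2 had log2 fold changes of 0.02 and 0.04. For the 8 ERAD genes 6 lay above 0, with a median of 0.05.

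Derl3 had the widest spread of the 31 genes and was chosen for display after its values were seen. It stood at 9.37, 19.3, 30.5 and 11.1 CPM in mice 28, 34, 37 and 39 and at 36.4, 4.35, 5.78 and 16.0 CPM in mice 29, 32, 40 and 41. The highest mouse exceeded the lowest by 8.38-fold, both of them controls, and the log2 fold change was 0.17 ± 0.66 (SE; edgeR adjusted p = 0.970). It was 1.01 without mouse 29 and -0.23 without mouse 37. Derl3 is known to be abundant in antibody-secreting plasma cells. The plasma cell marker Jchain stood at 4.78, 14.1, 26.6 and 3.54 CPM in Ripk1-hepKO and 11.2, 12.5, 1.66 and 16.4 CPM in Ripk1-Con. Mouse 37 was the highest Ripk1-hepKO mouse for Derl3 and for the markers Jchain, Igkc, Mzb1 and Iglc2. In that group Ighm and Sdc1 were the highest in mouse 28 and Pou2af1 in mouse 34. The highest control was mouse 29 for Derl3 and for the markers Iglc2, Pou2af1 and Ighm, and mouse 41 for Jchain, Igkc and Mzb1. The summed level of the 8 plasma cell markers was 188 to 986 CPM in Ripk1-hepKO and 218 to 306 CPM in Ripk1-Con, most of it from Sdc1, which hepatocytes also express, while Tnfrsf17 was at 0 in 6 of the libraries. The part of these cells in Derl3 was not tested.

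In the 4 genes of the translocon group the highest mouse exceeded the lowest by 1.36-fold (Sec61a1) to 1.68-fold (Ssr1). Sec61a1, the channel itself, stood at 243, 236, 180 and 188 CPM in mice 28, 34, 37 and 39 and at 209, 211, 179 and 214 CPM in mice 29, 32, 40 and 41 (log2 difference 0.06, SE 0.13, adjusted p = 0.941 in edgeR). Sec61b, its small subunit, stood at 25.1, 22.2, 20.2 and 21.2 CPM in Ripk1-hepKO and at 22.4, 18.4, 16.3 and 22.8 CPM in Ripk1-Con (log2 difference 0.15, SE 0.14, adjusted p = 0.839 in edgeR). In both genes the groups overlapped. Ssr1, a subunit of the translocon-associated complex, and Ostc, a subunit of the enzyme that adds N-linked sugars, had log2 fold changes of 0.11 and 0.10. All 4 lay above 0, with a median of 0.10, which was 0.01 without mouse 28 and -0.07 without mice 28 and 40.

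Among the regulators, Crebrf had the smallest p of the 31 genes. It encodes a protein that restrains the ER-linked transcription factor CREB3 (ENSMUSG00000048249, chromosome 17, 26715650 to 26776635, plus strand). It stood at 17.0, 14.6, 23.1 and 18.6 CPM in knockouts 28, 34, 37 and 39 and at 33.0, 37.03, 19.3 and 40.3 CPM in controls 29, 32, 40 and 41. Control mouse 40 lay inside the range of the Ripk1-hepKO mice, and the other 3 controls lay above all of them. The means were 18.3 ± 3.57 and 32.4 ± 9.22 CPM (SD, n = 4), and the log2 fold change was -0.82 ± 0.23 (SE) with an unadjusted p = 0.00565 and an adjusted p = 0.742 from edgeR. It was -0.70 to -0.99 with each mouse left out in turn.

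Xbp1, whose mRNA is spliced by IRE1 into the active factor, stood at 487, 307, 212 and 186 CPM in mice 28, 34, 37 and 39 and at 260, 367, 159 and 224 CPM in mice 29, 32, 40 and 41. Its log2 fold change of 0.24 ± 0.34 (SE; adjusted p = 0.904, edgeR) was -0.10 without mouse 28 and -0.27 without mice 28 and 40. A count per gene does not separate the spliced from the unspliced form. Ern1, which encodes IRE1 alpha, stood at 49.5, 98.1, 61.7 and 119 CPM in Ripk1-hepKO and at 61.1, 72.4, 135 and 83.1 CPM in Ripk1-Con. Mouse 28, the highest for Xbp1, was the lowest for Ern1, and mouse 40, the lowest for Xbp1, was the highest for Ern1. The log2 fold change of Ern1 was -0.10 ± 0.32 (SE; edgeR adjusted p = 0.964), and 0.36 without these 2 mice. Atf6, the sensor that is cut in the Golgi to release a transcription factor, stood at 149, 110.4, 117 and 120.2 CPM in Ripk1-hepKO and at 101, 132, 129.6 and 115 CPM in Ripk1-Con (log2 difference 0.06, SE 0.13, adjusted p = 0.944 in edgeR).

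**Figure D4:**
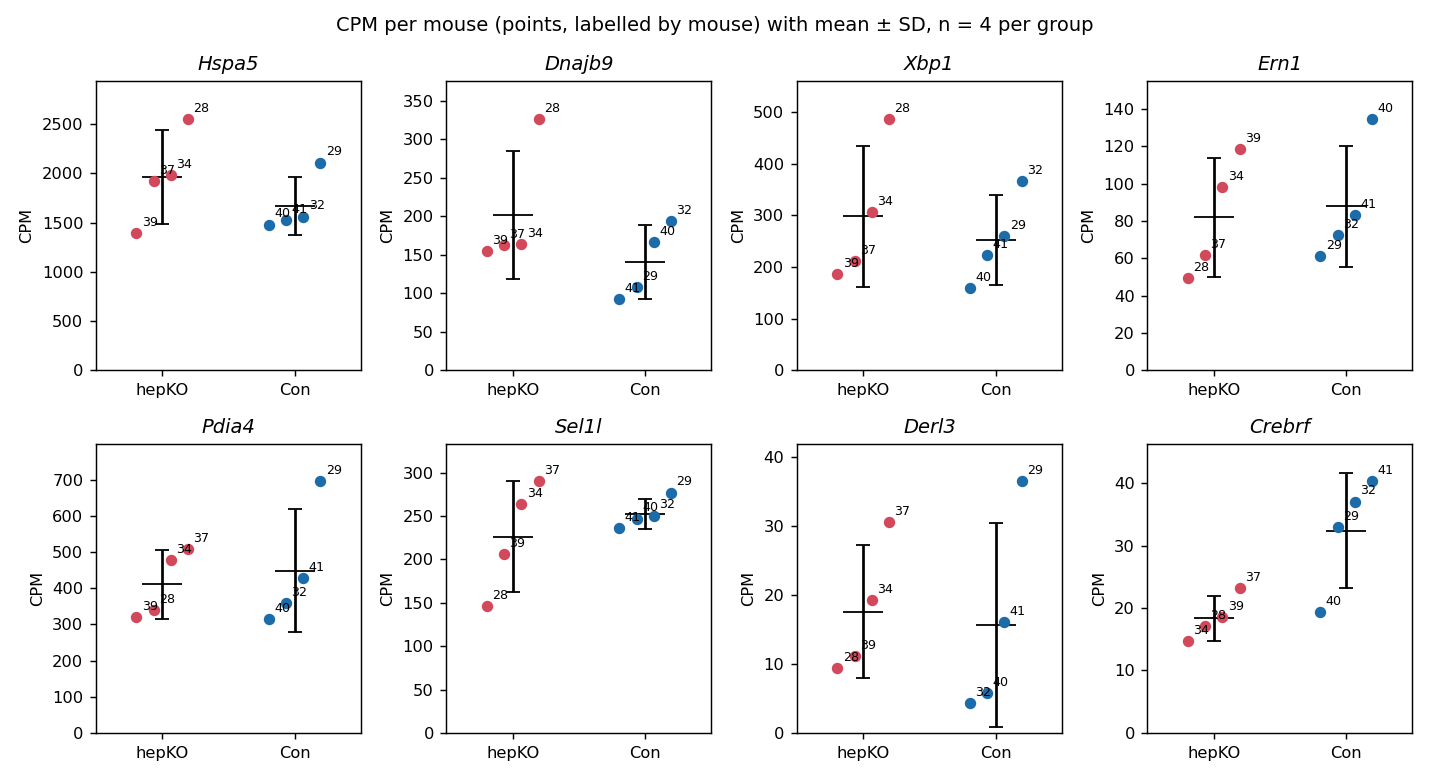
CPM per mouse (points, with mouse number) and mean ± SD (bars, n = 4 per group) for 8 of the genes, on linear axes that start at 0. The groups overlap in each panel, mouse 28 is the highest for Hspa5, Dnajb9 and Xbp1 and the lowest for Ern1 and Sel1l, and 3 of the 4 controls lie above all Ripk1-hepKO mice for Crebrf.

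Genes of the PERK arm were read beside the values of mouse 28. Ddit3, which encodes CHOP, stood at 55.7 CPM there against 7.82 to 26.5 CPM in the other 7 mice, and Eif2ak3, which encodes PERK, at 63.7 CPM against 17.2 to 33.8. Atf4 itself stood at 241 CPM in mouse 28 against 79.9 to 132 CPM in the other 7 mice. Mthfd2, a mitochondrial folate enzyme and target of ATF4, was the highest in mouse 34, at 10.98 CPM, and stood at 7.02 CPM in mouse 28. In the same mouse the hepatocyte markers were at their lowest sum, 84968 CPM, and mitochondrial transcripts at their highest share of counts, 10.5% against 8.86% to 9.74%. Their part in the values of that mouse was not tested.

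The genotype differences were also set beside the promoter elements. The 9 genes with an ERSE had 6 log2 fold changes above 0 and a median of 0.03. The 16 genes whose window held no ERSE had 9 above 0 and a median of 0.05. These 16 include Dnajb9, whose window did not reach before its GENCODE start. Among 11 tested genes outside the list with an ERSE the median was -0.23.

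Further genes of the secretory pathway were taken from wider lists. Of 19 other folding enzymes, 12 had a log2 fold change above 0, the median being 0.05, and 2 had an unadjusted p under 0.05, both higher in Ripk1-hepKO (beside 3.86% of all genes in that direction). These were Txndc11, a thioredoxin-domain protein, and Ero1l, the oxidase that recharges the disulfide isomerases. Ero1l stood at 58.0, 38.0, 26.4 and 30.3 CPM in mice 28, 34, 37 and 39 and at 23.8, 27.97, 30.0 and 24.7 CPM in mice 29, 32, 40 and 41 (log2 difference 0.52, SE 0.23, adjusted p = 0.747 in edgeR). Txndc11 stood at 83.7, 41.6, 41.4 and 37.5 CPM in Ripk1-hepKO and at 29.3, 39.8, 36.3 and 29.4 CPM in Ripk1-Con. Both were the highest in the mouse that stood apart.

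Of 22 genes of translocation and N-glycosylation, 17 lay above 0, with a median of 0.07, and 2 had an unadjusted p under 0.05. In both, Ssr4 and Sec11c, all 4 Ripk1-hepKO mice lay above all 4 controls, as did 2.01% of all genes. In the other direction (2.09% of all genes), the groups did not overlap for 1 of the 19 folding enzymes, the glucosidase subunit Ganab, named after its values were seen, and for 1 of the 6 other sensors and proteases, Mbtps1. Ssr4, a partner of Ssr1, stood at 55.3, 49.9, 45.3 and 45.8 CPM against 44.4, 41.9, 40.95 and 41.5 CPM (log2 difference 0.22, SE 0.10, adjusted p = 0.747 in edgeR). Sec11c, a catalytic subunit of the signal peptidase, stood at 21.7, 20.2, 17.3 and 19.6 CPM against 16.6, 16.9, 17.2 and 14.4 CPM (log2 difference 0.27, SE 0.11, adjusted p = 0.742 in edgeR). Neither passed the threshold over all genes.

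The wider ERAD list had 5 of 17 genes above 0 and a median of -0.05, and 0 of them had an unadjusted p under 0.05. Edem3, a further mannosidase homologue, had the smallest p, with a log2 fold change of -0.18. ER-to-Golgi transport genes had 10 of 18 above 0 and a median of 0.02, with coat subunits in both directions, Sec24a at -0.25 and Sec24b at 0.22. The 6 other stress sensors and their proteases had a median of 0.22, with Eif2ak3 at 0.65 and Mbtps1, the protease that cuts ATF6, at -0.16. Mbtps1 stood at 49.9, 58.2, 55.2 and 60.6 CPM in Ripk1-hepKO and at 61.7, 64.5, 60.8 and 63.5 CPM in Ripk1-Con. For comparison, the 26 listed PERK-ATF4-CHOP targets had 21 above 0 and a median of 0.44, with 5 at an unadjusted p under 0.05, all higher (beside 3.86% of all genes). Of these, Gdf15, a secreted stress cytokine, stood at 80.9 CPM in mouse 28 and at 3.66 to 15.7 CPM in the other 7 mice. Over the 26 targets the highest mouse exceeded the lowest by a median of 4.37-fold, and 0 passed FDR 0.05 in edgeR. Their median without mouse 28 was not computed, so how far that mouse carries it is not known. Whether these lists differ was not tested.

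Transcripts that IRE1 is known to cut were measured as well, since their loss is a readout of its nuclease other than Xbp1. All 6 of them, Bloc1s1, Scara3, Sparc, Col6a1, Hgsnat and Pdgfrb, lay above 0, as did 51.8% of all genes. Their median was 0.37, and 0 had an unadjusted p under 0.05 in edgeR. Hgsnat was the 1 gene of the 6 whose groups did not overlap, beside 2.01% of all genes in that direction. It stood at 45.3, 51.4, 46.5 and 47.5 CPM in Ripk1-hepKO and 40.5, 44.5, 44.6 and 43.2 CPM in Ripk1-Con (edgeR adjusted p = 0.779). Bloc1s1, the substrate shared by most cell types, had a log2 fold change at 0.07 ± 0.19 (SE) with an adjusted p = 0.954 from edgeR. Sparc, Col6a1 and Pdgfrb are made by stellate cells, and all 7 stellate cell markers were also above 0. The summed level of these 7 markers was 416 to 498 CPM in Ripk1-hepKO and 353 to 411 CPM in Ripk1-Con, with no overlap. Taken singly, the groups overlapped for every marker, and 1 of the 7 had an unadjusted p under 0.05 in edgeR, beside 3.86% of all genes in that direction. Nor was the sign particular to stellate cells. Above 0 lay 6 of 6 tested markers of monocytes, 6 of 6 of neutrophils and 5 of 5 of cholangiocytes. For plasma cells it was 7 of 7, for Kupffer cells 5 of 6 and for endothelial cells 5 of 6. T and NK cells had 3 of 4 and hepatocytes 2 of 8. The part of stellate or other cells in the values was not tested.

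Counting may also touch some of the genes. Of the 31, 13 overlap another annotated gene and 5 of these a protein-coding one, namely Manf, Pdia3, Pdia6, Syvn1 and Derl2. The partner with the highest mean level was Dcaf1, at 30.9 CPM opposite Manf, beside group means of 192 and 164 CPM for Manf itself. The libraries were strand-specific, per the labels' protocols, but the strand setting of the counts was not given in the sources used here, so reads from opposite strands may not have been told apart.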

How the data were processed

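Polyadenylated RNA of 8 livers was sequenced as strand-specific paired-end libraries, per the labels' protocols. The authors deposited counts per gene, as raw whole numbers. GRCm38.p6 is the build in the submitters' processing notes, which list STAR 2.5.2b, StringTie 2.2.1, FastQC 0.11.5 and, for DESeq2, version 1.38.1. Not given in the sources used here are the counting tool, its annotation and its strand setting. Of 55335 gene IDs, 55154 matched GENCODE M21, which gave symbols and positions.

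Counts were tested with edgeR 4.0.16 (R 4.3.3; filterByExpr, TMM, robust quasi-likelihood test, Benjamini-Hochberg adjustment over 15234 genes, FDR 0.05). Groups were compared as 4 against 4 mice with no covariate. The procedure was tested on simulated data with changes put into 50 genes at each size, namely 1.5-fold, 2-fold, 4-fold and 8-fold, in 1 run. The changed genes were drawn above a minimum level. Noise was drawn independently for each gene, so no simulated mouse stood apart as mouse 28 did. At FDR 0.05 it called 9 of the 50 changed 1.5-fold (18%) and 38 of the 50 changed 2-fold (76%). Of 14767 unchanged genes it called 6. Most differences of 1.5-fold would thus be missed. The adjustment is less strict where many genes change, so the shares called may be too high for the real data, also at 2-fold. Libraries held 28038390 to 67328158 counts, and no pair agreed within sampling noise. Alternatives were DESeq2 1.42.0 (size factors; Wald test), limma 3.58.1 voom, library size alone, other filters and leaving out mice.

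The genes, lists and tests were chosen with earlier results of these data known. Values per mouse were given for the gene of highest length-scaled level and of smallest p in each role, any of the 31 genes with an unadjusted p under 0.05 or groups without overlap, and 9 genes taken for their role (Hspa5, Hsp90b1, Xbp1, Atf6, Ern1, Sel1l, Herpud1, Dnajb9, Sdf2l1). From each wider list up to 2 genes of smallest p were named.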

Additional observations from a re-analysis of the deposited data

Results flagged for a closer look

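In 5 of 62 groups of 4 mice (31 genes in each genotype), 1 mouse lay far from the other 3 by Dixon's test, and chance alone flags about 1 in 20 such groups. Control mouse 29 stood out for Hspa5, at 2110 CPM, and for Creld2, at 227 CPM. Ripk1-hepKO mouse 28 stood out for Dnajb9, at 326 CPM. Control mouse 41 was low for Syvn1, at 125 CPM, and control mouse 40 was low for Sec61a1, at 179 CPM.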

How the results depend on the processing

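None of the 31 genes was called under any alternative. DESeq2's Wald test called 36 genes in all, where edgeR, voom and each left-out mouse gave 0. The median log2 fold change of the 31 genes ran from 0.00063 to 0.13 with each mouse left out in turn, and 16 to 23 genes lay above 0. Without mice 28 and 40 together, 10 lay above 0 and the translocon median was -0.069. Knockout mouse 28 was the highest for 13 of the 31 genes and control mouse 40 the lowest for 12. Leaving out that pair therefore tends to lower the fold changes, and these values are no independent check of them.

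Some signs turned. Without mice 28 and 40, Hsp90b1 was at -0.080, P4hb at -0.041, Sec61a1 at -0.071, Sec61b at -0.0021, Atf6 at -0.0014, Xbp1 at -0.27 and Ern1 at 0.36. With voom, Hsp90b1 was at -0.016 and Ern1 at 0.16. With each mouse left out in turn, Hsp90b1 ran from -0.076 to 0.24, Sel1l from -0.30 to 0.0045, Herpud1 from -0.26 to 0.070, Sec61a1 from -0.013 to 0.13, Atf6 from -0.042 to 0.11, Ern1 from -0.33 to 0.19 and Xbp1 from -0.10 to 0.48. The adjusted p of Crebrf ran from 0.201 (DESeq2) to 0.959 and that of Edem2 from 0.510 (DESeq2) to 0.959. No paired analysis was possible because the groups share no mouse numbers. The smallest count of any of the 31 genes in any library was 174, and 4 mice per group limit the precision.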
